A study of Mus musculus with 4 samples.

Results

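Metallothioneins are small, cysteine-rich proteins that bind zinc and copper. The mouse genes Mt1, Mt2 and Mt3 were examined with Mtf1, which encodes the zinc-sensing transcription factor MTF1, and Slc30a1, which encodes the zinc exporter ZnT1 of the plasma membrane. These 5 genes were chosen by name from the 17621 genes in the files, and all 5 were found by their Entrez gene IDs and passed the minimum level described below. MTF1 binds metal response elements in promoters when free zinc rises, and Mt1, Mt2 and Slc30a1 are its classical targets. Mt1 and Mt2 are made in many tissues, and in brain largely by astrocytes, where glucocorticoids, cytokines and oxidative stress also raise them. Mt3 is largely a brain form, also known as growth inhibitory factor, and is known to respond less to metals.

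RNA came from primary cultures of neural stem cells, taken from newborn mouse cortex and kept on laminin and poly-L-ornithine, in a series that asks how loss of the nucleoporin Seh1 alters expression during proliferation and differentiation. Control cells (Ctrl) had the genotype Seh1 f/f and depleted cells (iKO) the genotype cmv-cre-ert,seh1 f/f, so both carried the floxed alleles and iKO cells also carried a Cre recombinase under a CMV promoter, joined to an estrogen receptor domain as its name gives it. The sources used here do not say whether an inducer was added to either culture. The growth medium of day 0 held EGF and bFGF, and the differentiation medium of day 3 lacked both factors. Each of the 4 groups held 1 library, so differences between them could not be set against a spread of replicates, and no p-values are given.

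The 4 libraries held between 19611788 and 21040590 expected counts. Levels are given as CPM, counts scaled to library size with TMM factors, and ratios carry a 95% interval that covers counting error only. Genes were called higher or lower at 2-fold, meaning a log2((CPM + 1)/(CPM + 1)) of at least 1 in size, and the 12976 genes whose mean reached 1 CPM were compared. Scaling by library totals moved the median log2 ratio of all genes from -0.06 to 0.06 in the day 0 comparison of iKO with Ctrl and from -0.01 to -0.13 for day 3 against day 0 in iKO. Seh1l, the targeted gene, was at 40.3 CPM (Ctrl) and 19.2 CPM (iKO) at day 0, and at 33.2 and 11.0 CPM at day 3. All 12 neural stem and progenitor markers had counts in every library. Markers of microglia and macrophages summed to at most 12.1 CPM in any library, with 2 to 6 of the 10 genes at 0, and endothelial markers summed to at most 4.03 CPM.

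The 3 metallothionein genes lie side by side on chromosome 8 (GRCm38). Mt3 spans 94152607 to 94154148 (gene ID 17751), Mt2 spans 94172618 to 94173567 (gene ID 17750) and Mt1 spans 94178883 to 94180327 (gene ID 17748). Mtf1 lies on chromosome 4 (124802549 to 124849800, gene ID 17764) and Slc30a1 on chromosome 1 (191906697 to 191913248, gene ID 22782). Promoter sequence is shown for the metallothionein genes and Slc30a1, because MTF1 acts through short elements in such sequence and the 4 genes differed in their levels. The RefSeq promoter table (GRCm38.p6) places the start of transcription of Mt2 and Mt3 at the first base of the spans above. It places that of Mt1 at 94179089 and that of Slc30a1 at 191906781, later than the first base of their spans, so that 206 and 84 of the 250 bases before those starts lie within the gene spans. The 250 bases before the start are therefore printed for Mt2 (chr8:94172368-94172617) and Mt3 (chr8:94152357-94152606), and 30 bases around the 1 core found there for Mt1 (chr8:94179054-94179083) and Slc30a1 (chr1:191906726-191906755), all on the plus strand. Capitals mark the 7-base core of the metal response element, searched as TGCACNC and TGCGCNC on both strands.

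Mt1: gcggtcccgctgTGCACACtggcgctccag

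Mt2: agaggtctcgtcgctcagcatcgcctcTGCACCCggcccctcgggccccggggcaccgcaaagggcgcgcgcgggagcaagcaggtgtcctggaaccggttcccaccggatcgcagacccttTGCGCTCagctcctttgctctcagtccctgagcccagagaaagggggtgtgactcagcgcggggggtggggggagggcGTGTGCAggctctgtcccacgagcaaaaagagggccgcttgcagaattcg

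Mt3: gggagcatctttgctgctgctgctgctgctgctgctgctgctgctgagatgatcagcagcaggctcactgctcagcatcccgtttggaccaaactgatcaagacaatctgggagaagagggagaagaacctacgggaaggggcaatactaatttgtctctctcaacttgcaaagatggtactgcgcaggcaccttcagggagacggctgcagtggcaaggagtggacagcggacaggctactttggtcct

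Slc30a1: aacgggggttccGAGTGCAaagcaaagttt

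In the 250 bases before the starts of the promoter table, the number of cores was 1 in Mt1, 3 in Mt2, 1 in Slc30a1, 0 in Mt3 and 0 in Mtf1. Of 32851 such windows of mouse genes, 21.4% held at least 1 core, 5.18% at least 2 and 1.26% at least 3. With the first 50 bases after the start included, the counts were 3 in Mt1, 4 in Mt2, 1 in Mt3, 2 in Slc30a1 and 0 in Mtf1. In windows of that length 25.7% of all held at least 1 core, 7.11% at least 2, 1.97% at least 3 and 0.518% at least 4. The cores of Mt1 lay 23 bases before that start and 3 and 21 bases after it, counted to the first base of the core. The counts depend on where the promoter table places each start, and bases further than 50 after it were not searched. They therefore do not rank the genes by their metal response elements. A match of these letters is a description of the window and not a binding site.

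All 3 metallothionein genes stood at their lowest in Ctrl at day 0 and at their highest in iKO at day 3. Mt1 was at 238 CPM (Ctrl) and 308 CPM (iKO) at day 0, and at 1474 CPM (Ctrl) and 2855 CPM (iKO) at day 3. Mt2 was at 81.4 and 132 CPM at day 0, and at 1144 and 1854 CPM at day 3, in the same order of Ctrl and iKO. Mt3 was at 220 and 344 CPM at day 0, and at 674 and 1253 CPM at day 3. For each of the 3 genes both day 3 libraries therefore lay above both day 0 libraries, and within each day the iKO library lay above the Ctrl library. That order of the 4 libraries was found in 14.5% of all genes compared. In bulk RNA, fewer cells of a type and less RNA per cell cannot be told apart. In sum the 3 genes held 0.0522% (Ctrl) and 0.0829% (iKO) of all counts at day 0, then 0.335% and 0.573% at day 3.

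**Figure D1:**
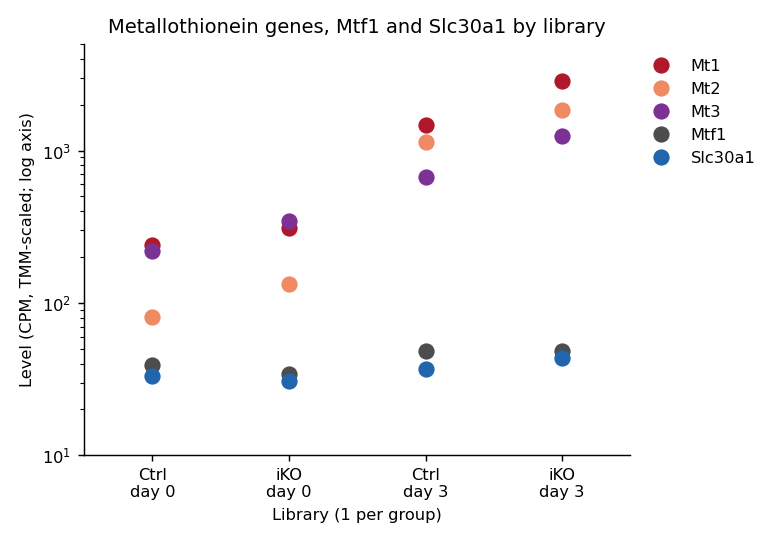
Level of each gene (CPM after TMM scaling, log axis) in the 4 libraries, with 1 point per library and no error bar because each group held 1 library. The 3 metallothionein genes spread from 81.4 to 344 CPM at day 0 and from 674 to 2855 CPM at day 3, while Mtf1 and Slc30a1 stayed between 30.6 and 48.6 CPM.

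The regulator and the exporter moved far less. Mtf1 was at 39.4 CPM (Ctrl) and 34.4 CPM (iKO) at day 0, and at 48.1 and 48.6 CPM at day 3. Slc30a1 was at 33.4 CPM (Ctrl) and 30.6 CPM (iKO) at day 0, and at 36.6 and 43.7 CPM at day 3. Mtf1 in the day 3 libraries, Slc30a1 in the day 0 libraries and Slc30a1 in Ctrl at the 2 days differed by no more than their counting intervals allow.

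Withdrawal of the growth factors went with higher metallothionein levels in control cells. Of the 5 genes 3 were at least 2-fold higher at day 3 and none was lower, where 14.6% of all genes compared were higher by that rule and 15.1% lower, 29.7% in either direction. Mt2 differed most, at 14.1-fold higher (13.4 to 14.8), and only 0.254% of all genes had a larger log2 ratio. Mt1 was 6.18-fold higher (5.997 to 6.38) and Mt3 3.07-fold higher (2.96 to 3.17), with 1.38% and 6.06% of genes above them. Mtf1 was 1.22-fold higher (1.11 to 1.34) and Slc30a1 1.10-fold higher (0.986 to 1.22), the latter within counting error. The median log2 ratio of all genes was -0.02.

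In depleted cells the same 3 genes were at least 2-fold higher at day 3, where 11.2% of all genes were higher and 11.4% lower, 22.7% in either direction. Mt2 was 14.0-fold higher (13.5 to 14.6), Mt1 9.26-fold higher (9.03 to 9.50) and Mt3 3.64-fold higher (3.55 to 3.74). Only 0.123% of all genes had a larger log2 ratio than Mt2, and 0.324% a larger one than Mt1. Mtf1 was 1.41-fold higher (1.28 to 1.56) and Slc30a1 1.43-fold higher (1.29 to 1.59). Over all genes, 1459 were higher and 1485 lower in this comparison, against 904 and 1447 with deposited FPKM in place of CPM.

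Lower Seh1l went with higher metallothionein levels at both days, by less than 2-fold. At day 0 none of the 5 genes reached 2-fold, a size that 3.01% of all genes reached, 2.67% on the higher and 0.331% on the lower side. There Mt2 was 1.63-fold higher in iKO (1.53 to 1.73), Mt3 1.57-fold (1.51 to 1.62) and Mt1 1.29-fold (1.25 to 1.34). The counting interval of 25.8% of all genes lay wholly on the higher side and that of 39.5% on the lower side. The same shares were 34.5% and 35.6% for iKO against Ctrl at day 3, 40.6% and 43.2% for day 3 against day 0 in Ctrl, and 40.1% and 40.7% in iKO. The share of genes with a larger log2 ratio was 6.54% for Mt2, 7.64% for Mt3 and 16.1% for Mt1. Mtf1 was 1.15-fold lower in iKO (1.04 to 1.27), and Slc30a1 was 1.09-fold lower (0.978 to 1.21), the latter within counting error. The Slc30a1 ratio took the other sign with library totals and with deposited FPKM.

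At day 3 none of the 5 genes reached 2-fold either, where 11.0% of all genes did, 6.27% on the higher and 4.76% on the lower side. Mt1 came nearest, at 1.94-fold higher in iKO (1.91 to 1.97), followed by Mt3 at 1.86-fold (1.82 to 1.90) and Mt2 at 1.62-fold (1.59 to 1.65). Larger log2 ratios were found in 6.998% of genes for Mt1, 8.05% for Mt3 and 11.9% for Mt2. Slc30a1 was 1.20-fold higher (1.08 to 1.32), and Mtf1 was 1.01-fold higher (0.922 to 1.11), a ratio that took the other sign with library totals and with deposited FPKM. The authors' deposited tables of iKO against Ctrl list 103 genes (day 0) and 1774 genes (day 3), and hold none of the 5 genes. The smallest log2 ratio in those tables is 1.00 in size, and the sources used here do not give the threshold behind them.

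**Figure D2:**
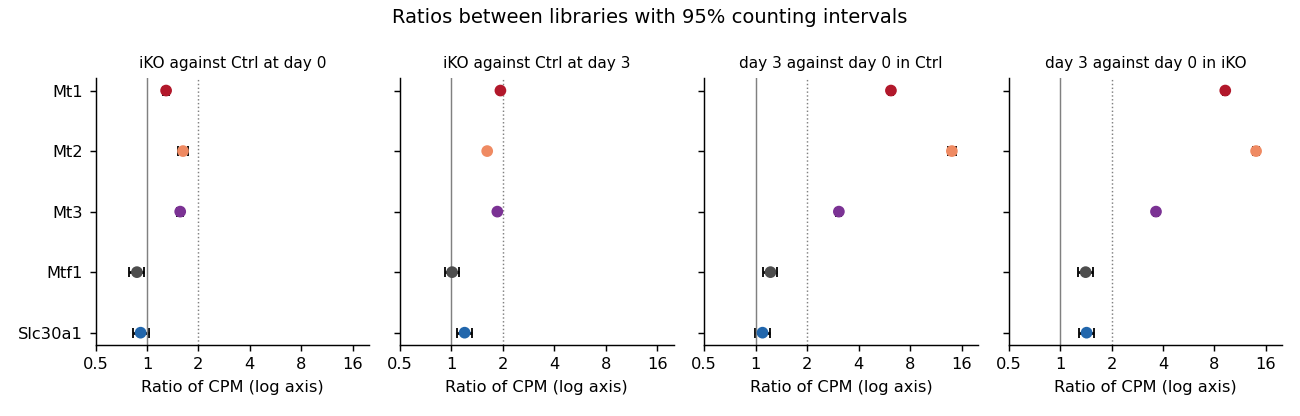
Ratio of CPM between libraries (log axis) for the 5 genes in 4 comparisons, with bars for the 95% counting interval, a solid line at a ratio of 1 and a dotted line at 2. Mt1, Mt2 and Mt3 lie right of the dotted line in both comparisons of day 3 with day 0 and between the lines for iKO against Ctrl at both days.

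The 3 genes did not keep the same ratio to each other. The log2 ratio of iKO to Ctrl was larger at day 3 than at day 0 by 0.58 for Mt1 (0.53 to 0.64) and by 0.25 for Mt3 (0.19 to 0.31), and differed by -0.0033 for Mt2 (-0.09 to 0.09). These intervals come from the normal approximation to counting error, and without further cultures the difference between the days was not tested. The sizes depend on the scaling: with library totals they were 0.37 for Mt1, 0.04 for Mt3 and -0.21 for Mt2, and with deposited FPKM 0.37, 0.04 and -0.21. The order of Mt1 above Mt3 above Mt2 was the same under all 6 alternatives. These could hardly alter it, because a change of scaling shifts the 3 genes by nearly the same amount.

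Levels per transcript length showed a change in which form led. In deposited FPKM (fragments scaled to transcript length and library size, a unit taken from the values because the header does not name it), Mt1 led in Ctrl at day 0 with 447, close to Mt3 with 417 and above Mt2 with 149. In iKO at day 0 Mt3 led with 713 FPKM, followed by Mt1 with 633 and Mt2 with 265. At day 3 the order was Mt1, Mt2 and Mt3 in both cultures, at 2921, 2210 and 1350 FPKM in Ctrl and 5344, 3382 and 2368 FPKM in iKO. The FPKM of Mt2 was thus 0.357 of that of Mt3 in Ctrl at day 0 and 1.64 times it at day 3, and in iKO it went from 0.371 to 1.43 times. Mt1 was the 144th most abundant gene by FPKM in Ctrl at day 0 and the 90th in iKO, and the 5th and 3rd at day 3. All 3 genes together made up 0.224% of summed FPKM in Ctrl at day 0, 0.361% in iKO at day 0, 1.68% in Ctrl at day 3 and 2.75% in iKO at day 3.

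**Figure D3:**
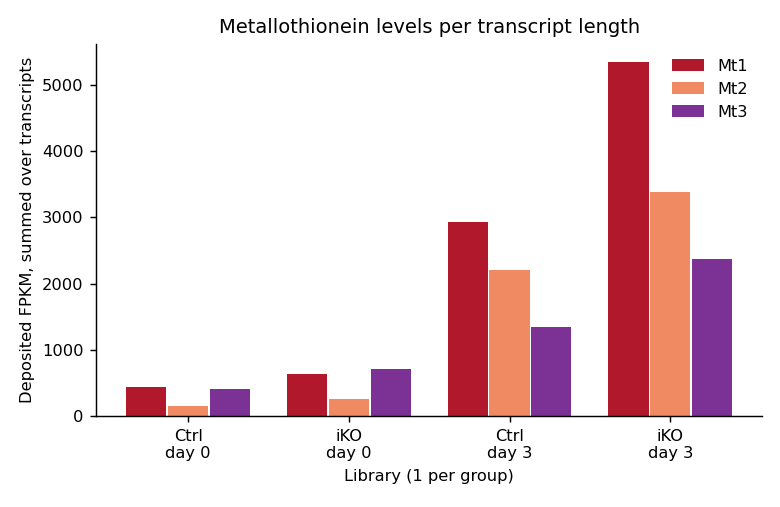
Deposited FPKM of Mt1, Mt2 and Mt3, summed over the transcripts of each gene, in the 4 libraries (1 per group, no error bars). At day 0 Mt2 was the lowest of the 3 in both cultures, at 149 and 265 FPKM, and at day 3 Mt3 was the lowest, at 1350 and 2368 FPKM.

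Reads of the 3 genes could in principle be exchanged, since their proteins are close relatives. The longest exact stretch shared by their main GENCODE transcripts was 27 bases, between Mt1 and Mt3, and 20 bases between Mt2 and each of the others. The summed expected counts of Mt1, Mt2 and Mt3 were whole numbers within 0.01 in all 4 libraries, so these sums hold no fractional share of a read. Mt2 and Mt3 each had 1 transcript model, and 99.2% to 99.5% of the counts of Mt1 lay on 1 of its 2 models. Mt4, the remaining gene of the cluster, was not analysed here.

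Other targets of MTF1 did not follow the metallothionein genes evenly. In Ctrl none of the 6 targets compared (Gclc, Pgf, Selenow, Ndrg1, Csrp1 and Slc39a10) was 2-fold apart between the days, beside 29.7% of all genes. Their median log2 ratio was 0.12, beside -0.02 for all genes. With library totals or deposited FPKM 1 was higher, and with a pseudocount of 0.1 CPM 1 was higher and 1 lower. In iKO 2 were higher at day 3 and none lower (median 0.64, all genes -0.01). These were Gclc, a subunit of the enzyme that starts glutathione synthesis, at 2.20-fold (2.10 to 2.31), and Csrp1, a LIM domain protein, at 2.06-fold (1.95 to 2.18). With library totals, and with deposited FPKM, neither of them reached 2-fold and 1 target, Slc39a10, was lower. The medians pool Slc39a10 with the other targets, although MTF1 is known to repress it. Between iKO and Ctrl none was 2-fold apart at day 0 (median -0.06, all genes -0.06), beside 3.01% of all genes. There 1 target was higher with library totals or a pseudocount of 0.1 CPM. At day 3 only Ndrg1 was 2-fold apart (median 0.41, all genes -0.01), beside 11.0% of all genes. It was at 0.448 CPM (Ctrl) and 3.39 CPM (iKO), from 9 and 64 counts. No target was higher with a pseudocount of 5 CPM, or with deposited FPKM, where 5 were compared (median 0.08).

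Slc39a10, a zinc importer that MTF1 is known to repress, ran opposite to the metallothionein genes. It was at 130 CPM (Ctrl) and 117 CPM (iKO) at day 0, and at 89.0 and 60.6 CPM at day 3, so that its lowest library was the one in which Mt1, Mt2 and Mt3 were highest. From day 0 to day 3 it was 1.46-fold lower in Ctrl (1.38 to 1.55) and 1.93-fold lower in iKO (1.80 to 2.07). The fall in iKO passed 2-fold with library totals and with deposited FPKM. At day 3 it was 1.47-fold lower in iKO than in Ctrl (1.36 to 1.58). The day 0 difference was small, at 1.115-fold lower in iKO (1.055 to 1.178), with 24.99 (Ctrl) and 24.49 (iKO) in deposited FPKM. Whether MTF1 had a part in these levels was not tested.

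Among zinc importers the brain-enriched Slc39a12 stood out. It was at 4.08 CPM (Ctrl) and 10.3 CPM (iKO) at day 0, and at 61.0 CPM (Ctrl) and 247 CPM (iKO) at day 3. The order of its 4 libraries was that of Mt1, Mt2 and Mt3. It was 14.9-fold higher at day 3 in Ctrl (11.95 to 18.9) and 23.9-fold higher in iKO (20.9 to 27.5). In iKO it was 2.53-fold higher than in Ctrl at day 0 (1.96 to 3.29) and 4.05-fold higher at day 3 (3.80 to 4.32), and the day 0 call was lost with a pseudocount of 5 CPM. Of 12 importers compared it was the only one called higher in Ctrl at day 3, beside 14.6% of all genes. In iKO Slc39a4 was also called, beside 11.2% of all genes. Slc39a4 was near the 1 CPM pseudocount, and its fold from day 0 to day 3 was alike in the 2 cultures. It went from 0.246 to 1.39 CPM in Ctrl, 5.66-fold (2.16 to 18.8), and from 0.551 to 3.13 CPM in iKO, 5.68-fold (3.02 to 11.6). Its level was 2.239-fold higher in iKO than in Ctrl at day 0 (0.734 to 8.11) and 2.245-fold higher at day 3 (1.41 to 3.66). With a pseudocount of 0.1 CPM 2 importers were higher in Ctrl, and with 5 CPM or deposited FPKM only 1 was in iKO. Medians of the importers were 0.15 in Ctrl and 0.29 in iKO for day 3 against day 0, and 0.18 at day 0 and 0.24 at day 3 for iKO against Ctrl. The importers Slc39a11, Slc39a13 and Slc39a14 were 1.69-fold (1.52 to 1.88), 1.65-fold (1.503 to 1.82) and 1.60-fold higher (1.43 to 1.80) in iKO at day 3, short of 2-fold.

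Among transporters of the exporter family Slc30a10, which is best known for exporting manganese, differed most. It was at 2.71 CPM (Ctrl) and 2.20 CPM (iKO) at day 0, and at 56.9 CPM (Ctrl) and 19.4 CPM (iKO) at day 3. It was 21.0-fold higher at day 3 in Ctrl (16.1 to 28.1) and 8.81-fold higher in iKO (6.51 to 12.2). At day 3 it was 2.93-fold lower in iKO than in Ctrl (2.61 to 3.31), opposite in sign to Mt1, Mt2 and Mt3. The other 5 family members compared, Slc30a4, Slc30a5, Slc30a6, Slc30a7 and Slc30a9, were within 2-fold in all 4 comparisons. Family medians, without Slc30a1, were 0.30 in Ctrl and 0.34 in iKO for day 3 against day 0, and -0.09 at day 0 and 0.02 at day 3 for iKO against Ctrl. The last 2 medians took the other sign with library totals.

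**Figure D4:**
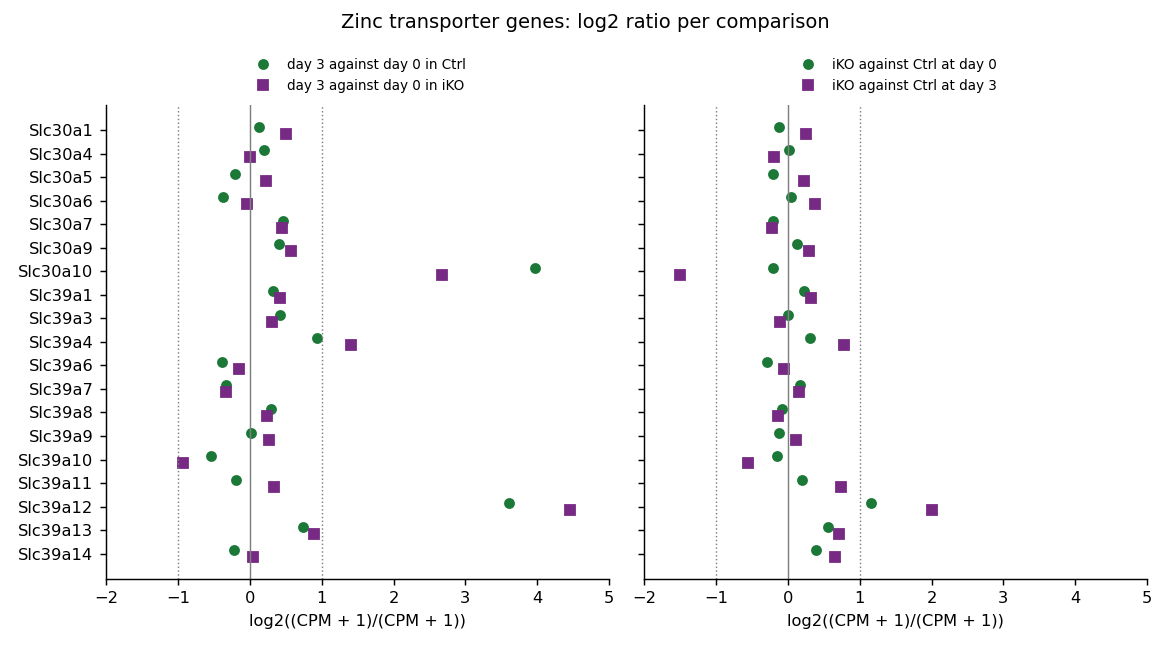
log2 ratio of CPM + 1 for Slc30a1, 6 other members of the exporter family and 12 zinc importers, for day 3 against day 0 (left) and iKO against Ctrl (right), 1 point per comparison, with dotted lines at 1 and -1. Slc39a12 lies right of 1 in all 4 comparisons, and Slc30a10 lies right of 1 on the left panel but at -1.51 for iKO against Ctrl at day 3.

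Copper handling genes were listed because metallothioneins also bind copper. Of 14 genes 4 were higher and 2 lower at day 3 in Ctrl (median -0.04, positive with library totals), beside 14.6% and 15.1% of all genes. In iKO 3 were higher and 1 lower (median 0.22), beside 11.2% and 11.4%. Atp7b, a copper-exporting pump, was 4.45-fold higher at day 3 in Ctrl (3.53 to 5.67) and 7.44-fold higher in iKO (6.21 to 8.98). Ceruloplasmin (Cp), a copper-carrying ferroxidase, was 3.41-fold higher in Ctrl (3.02 to 3.86) and 4.19-fold higher in iKO (3.85 to 4.55). For iKO against Ctrl none was 2-fold apart at day 0, and at day 3 Cp and Atp7b were higher, by 2.39-fold (2.23 to 2.57) and 2.38-fold (2.11 to 2.69), beside 6.27% of all genes. With deposited FPKM 1 gene, not 2, was higher at day 3, and with library totals 1 was higher at day 0.

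Glucocorticoid response genes, listed because glucocorticoids raise Mt1 and Mt2, were 2-fold apart in part. Of 14 genes 6 were at least 2-fold higher and 1 lower at day 3 in Ctrl (median 0.69), beside 14.6% and 15.1% of all genes. In iKO 5 were higher and none lower (median 0.82), beside 11.2% and 11.4% of all genes, and 1 was lower with library totals. Pdk4, a kinase that restrains pyruvate oxidation, was 13.3-fold higher in Ctrl (8.69 to 21.3) and 6.32-fold higher in iKO (5.04 to 7.997). For iKO against Ctrl the medians were 0.09 at day 0 and 0.39 at day 3. At day 0, 1 gene of the list was higher, beside 2.67% of all genes. At day 3, 1 was higher and 1 lower, beside 6.27% and 4.76%. With a pseudocount of 5 CPM neither day had a higher gene, and with library totals 3 were higher at day 0. The gene lower in iKO than in Ctrl at day 3 was Cdkn1c, a CDK inhibitor, at 8.60-fold (7.05 to 10.6). It was among the 6 genes higher at day 3 in Ctrl, and the 1 lower there was another gene. Whether either set of genes had a part in the metallothionein levels was not tested.

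Astrocyte markers moved with the metallothionein genes. The summed level of 16 markers was 3224 CPM (Ctrl) and 4863 CPM (iKO) at day 0, and 21907 and 32633 CPM at day 3, in the same order of libraries as Mt1, Mt2 and Mt3. That order was not particular to them. Summed levels of the glucocorticoid response genes, and of the iron handling and the STAT3 and cytokine lists given below, had it too. Those of the zinc transporter, MTF1 target, copper handling, heat shock and oxidative stress lists did not. None of the 16 was at 0 in any library. At day 3, 13 were at least 2-fold higher and 1 lower in Ctrl (median 3.14), beside 14.6% and 15.1% of all genes. In iKO 13 were higher and none lower (median 2.97), beside 11.2% and 11.4%. For iKO against Ctrl 4 were higher at day 0 (median 0.56) and 3 at day 3 (median 0.64), with none lower at either day. Of all genes 2.67% were higher and 0.331% lower at day 0, and 6.27% and 4.76% at day 3. The part of the astrocyte markers in the metallothionein levels was not tested. Markers of other cell types also differed between iKO and Ctrl, and the same shares of all genes apply to the counts that follow. Ependymal markers, 3 of which were compared, summed to 53.0 and 108.5 CPM at day 0 and 70.1 and 272 CPM at day 3 in Ctrl and iKO, with 2 at least 2-fold higher in iKO at each day. Fibroblast and mural markers summed to 8.66 and 25.2 CPM at day 0, with 3 of 5 higher in iKO, and to 15.97 and 12.2 CPM at day 3, with none higher and 1 lower. Neuronal markers summed to 1004 and 960 CPM at day 0, with 2 of 11 higher in iKO, and to 1870 and 1006 CPM at day 3, with 5 lower. Oligodendrocyte lineage markers summed to 4802 and 4289 CPM at day 0, with 4 of 11 lower in iKO, and to 5123 CPM (Ctrl) and 3621 CPM (iKO) at day 3, with 8 of 11 at least 2-fold lower in iKO (median -1.54). The part of these markers in the metallothionein levels was not tested.

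Genes on either side of the cluster were mostly within 2-fold in these comparisons. Of the 11 nearest genes compared, which include Mt2 and Mt3, 3 were at least 2-fold higher at day 3 in Ctrl and 1 was lower, beside 14.6% and 15.1% of all genes. The third higher gene was Bbs2, a ciliary protein gene whose start lies at -110.9 kb relative to that of Mt1, at 2.55-fold (2.23 to 2.92), and the lower gene was Nudt21, a polyadenylation factor, at 2.30-fold (2.14 to 2.47). In iKO the higher genes were Mt2 and Mt3 and none was lower, beside 11.2% and 11.4% of all genes. The nearest neighbour on the far side, Nup93, starts 35.7 kb after Mt1 and encodes a nucleoporin of the inner ring of the nuclear pore. It was at 116 CPM (Ctrl) and 89.3 CPM (iKO) at day 0, and at 61.0 and 94.8 CPM at day 3, so that it was 1.89-fold lower at day 3 in Ctrl (1.77 to 2.03) while Mt1 was higher. For iKO against Ctrl Nup93 was 1.29-fold lower at day 0 (1.22 to 1.38) and 1.55-fold higher at day 3 (1.44 to 1.67). The 1 neighbour at least 2-fold higher in iKO at both days was Nlrc5, a regulator of MHC class I genes 255.5 kb after Mt1. Of all genes 2.67% were higher at day 0 and 6.27% at day 3. Nlrc5 was at 0.344 and 2.62 CPM at day 0 and 1.59 and 4.61 CPM at day 3. Its call was lost at both days on the deposited FPKM scale or when 5 CPM was the pseudocount.

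**Figure D5:**
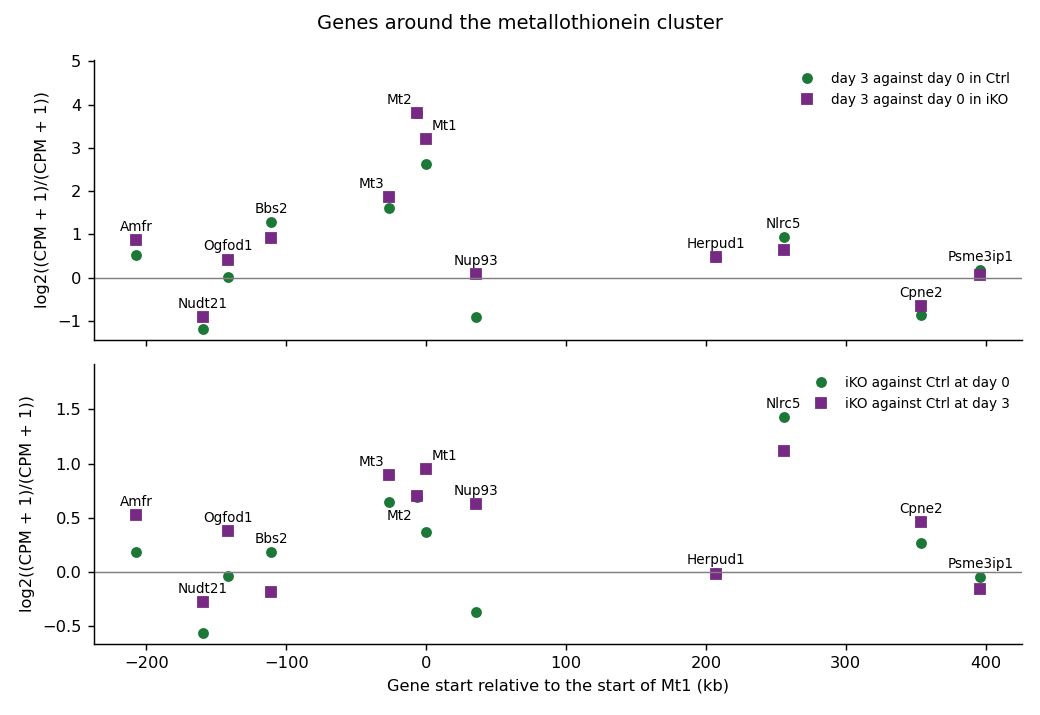
log2 ratio of CPM + 1 against the distance of each gene's start from that of Mt1 in kb, for day 3 against day 0 (top) and iKO against Ctrl (bottom), 1 point per gene and comparison. In the top panel Mt1, Mt2 (both points at 3.80) and Mt3 lie between 1.61 and 3.80 and the other genes between -1.19 and 1.29.

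Genes whose levels over the 4 libraries were most like those of each metallothionein were found by the distance between centred log2(CPM + 1) profiles, among 10135 genes whose mean reached 10 CPM. For Mt1 these were Trpm3, a cation channel, at a distance of 0.12, then Atp13a4, Phyhd1, Abcd2 and Rida, up to 0.34. Trpm3 was at 1.57 and 2.20 CPM at day 0 and 13.5 and 30.1 CPM at day 3 in Ctrl and iKO. For Mt2 they were Gpc5, Phkg1, Nat8f1, Aqp4 and Cyp4v3, at distances of 0.43 to 0.50. Aqp4, the water channel of astrocytes, was at 20.6 and 48.4 CPM at day 0 and 388 and 767 CPM at day 3. For Mt3 they were Parp4, Slc25a18, Ttyh2, Lcat and Hsdl2, at 0.11 to 0.18. Slc25a18, a mitochondrial glutamate carrier, was at 163 and 253 CPM at day 0 and 451 and 832 CPM at day 3. The metallothionein genes were not each other's nearest: Mt2 ranked 110th for Mt1 at a distance of 0.93, and Mt3 ranked 198th at 1.19. The added 1 CPM shrinks ratios of genes near that level, so a small distance need not mean the same fold. Phkg1, for example, was at 0.295 and 0.918 CPM at day 0 and 18.8 and 20.3 CPM at day 3. These distances rest on 4 libraries and are a description.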

How the data were processed

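The 4 RNA-seq libraries of mouse neural stem cells were grouped by their titles; the labels' protocols name a BGI library kit. The submitters' processing notes list the mm10 build and, without versions, HISAT, Bowtie2 and StringTie. The counting tool, annotation release and filters are not named there. The authors deposited, per RefSeq transcript, an expected count (an estimate with decimals) and an expression value. That deposited value was taken as FPKM from its ratio to count and length. The authors' deposited tables of differential genes hold a log2 ratio and an FDR, an adjusted p-value, per the file headers. They were used only to see whether the 5 genes are listed.

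Expected counts were summed per gene and rounded. Symbols came from RefSeq (GRCm38.p6, the build mm10 names) by gene ID for 17498 of 17621 genes. Effective library sizes came from edgeR 4.0.16 (TMM) in R 4.3.3, with factors of 0.966 and 1.06 for Ctrl and iKO at day 0 and 1.02 and 0.962 at day 3. Intervals of ratios are exact conditional (Clopper-Pearson) 95% intervals from scipy 1.17.1. They cover counting error only, because each group held 1 library. Reads without molecular identifiers may also repeat a molecule, which these intervals do not cover. The interval code was checked on simulated counts.

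The members and lists were chosen with earlier results of these data known. The text names the 5 members in all libraries, up to 2 genes with the largest ratios of each other list per comparison, any zinc transporter, the 6 measured genes nearest to Mt1 on each side and the 5 most like genes of each metallothionein. The 6 other MTF1 targets are listed by name. Astrocyte and other marker lists are given as totals and counts. Changing a single choice each time, ratios were recomputed with a pseudocount of 0.1 or 5 CPM, without the minimum level, or with library totals, DESeq2 1.42.0 size factors or deposited FPKM. No protein sequences were used here.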

Additional observations from a re-analysis of the deposited data

How the results depend on the processing

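With 1 library per group no library could be left out. No paired analysis was possible because each group held 1 library and the labels carry no replicate numbers. Of 120 alternative values of the 20 member ratios, 116 kept their sign and 26 left the counting interval of the reported value. The 20 values without the minimum level could not differ, because all members pass it. The 4 that changed sign belong to Slc30a1 at day 0 (up to 0.02) and Mtf1 at day 3 (down to -0.07), for iKO against Ctrl. The number of members 2-fold apart was the same under all 6 alternatives in each comparison: 0, 0, 3 and 3. For iKO against Ctrl the log2 ratio of Mt1 lay between 0.36 and 0.50 at day 0 and between 0.87 and 0.96 at day 3. Counts over all genes did move. At day 0, iKO against Ctrl, 347 higher and 43 lower genes became 706 and 80 (pseudocount 0.1 CPM) or 111 and 13 (5 CPM), and the lower count was 25 with library totals and 20 with deposited FPKM. At day 3 the 813 higher genes became 430 (pseudocount 5 CPM) or 469 (deposited FPKM), and the 618 lower genes became 358 with a pseudocount of 5 CPM. For day 3 against day 0, the 1894 higher genes in Ctrl became 1213 with a pseudocount of 5 CPM, and the 1459 in iKO became 904 with deposited FPKM. A larger pseudocount lowers ratios of low genes by construction. With deposited FPKM the pseudocount and the minimum were 1 FPKM, so other genes were compared. In Ctrl at day 0, 1 FPKM stood for 10.84 counts of Mt1 and 162.5 of Mtf1. Library totals shift all ratios of a comparison by a common factor, apart from the pseudocount. How much of each change these account for was not tested. Counting error is small at these levels, and the spread between cultures was not measured. Library totals and deposited FPKM moved most metallothionein ratios beyond their counting intervals.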

Other observations

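Among 11 oxidative stress response genes the day 3 comparison of iKO with Ctrl had 5 that were 2-fold higher and 0 lower (median 0.96, all genes -0.01), beside 6.27% and 4.76% of all genes. Hmox1, the heme-degrading enzyme, was at 43.4 and 85.2 CPM in Ctrl and iKO at day 0 and at 75.5 and 383 CPM at day 3, 5.07-fold higher in iKO (4.80 to 5.36). At day 0 none of the 11 reached 2-fold (median 0.37), and 3 were higher with library totals. For day 3 against day 0, 2 were higher and 2 lower in Ctrl (median 0.40), beside 14.6% and 15.1% of all genes, and 6 were higher and none lower in iKO (median 1.25), beside 11.2% and 11.4%. Slc7a11, the cystine importer, was 4.52-fold higher in Ctrl (3.95 to 5.18) and 6.13-fold higher in iKO (5.48 to 6.86).

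Of 11 heat shock genes 3 were lower and 1 higher at day 3 in Ctrl (median -0.72), beside 15.1% and 14.6% of all genes, with the mitochondrial chaperone gene Hspd1 3.89-fold lower (3.74 to 4.05). In iKO 1 was lower and 1 higher (median -0.41), beside 11.4% and 11.2% of all genes, and 3 were lower with library totals. None was 2-fold apart between iKO and Ctrl at either day, while 2 were higher at day 0 and 1 at day 3 with a pseudocount of 0.1 CPM. Of 8 iron handling genes none was 2-fold apart between iKO and Ctrl at day 0, and 2 were higher and none lower in iKO at day 3 (median 0.65), beside 6.27% and 4.76% of all genes. For day 3 against day 0, none was higher and 2 (Tfrc and Trf) were lower in Ctrl (median -0.14), beside 14.6% and 15.1% of all genes. In iKO 1 was higher and none lower (median 0.26), beside 11.2% and 11.4%. Trf, which encodes transferrin, was at 41.7 CPM (Ctrl) and 55.7 CPM (iKO) at day 0 and at 16.02 and 50.1 CPM at day 3, and the ferritin heavy chain gene Fth1, which has copies elsewhere in the genome, was at 657 and 897 CPM at day 0 and at 1131 and 3554 CPM at day 3. Of 12 genes of the STAT3 and cytokine list 3 were higher in iKO at day 0 (median 0.26) and 4 at day 3 (median 0.57), with none lower, beside 2.67% and 6.27% of all genes. For day 3 against day 0, 4 were higher and 4 lower in Ctrl (median 0.51), beside 14.6% and 15.1% of all genes. In iKO 6 were higher and 2 lower (median 0.83), beside 11.2% and 11.4%. Gfap, which is also an astrocyte marker, was at 3.94 and 17.1 CPM in Ctrl and iKO at day 0 and at 160 and 194 CPM at day 3.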
